A study of Homo sapiens with 24 samples.

Results

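HSP90 and its co-chaperones are described here through 10 genes of the 57500 in the deposited count tables. They are the HSP90 paralogs HSP90AA1 and HSP90AB1 and the co-chaperones FKBP4, FKBP5, AHSA1, STIP1, CDC37, PTGES3, CHORDC1 and UNC45A. The genes were listed by symbol, matched to Ensembl identifiers through GENCODE v29, and followed over all 8 groups of the study. RNA was sequenced from spheroids of FaDu (human hypopharyngeal squamous carcinoma) and SAS (human tongue squamous carcinoma), which are established cell lines, so each spheroid type stands for 1 line and not for tumours in general. For each line there were 4 groups of 3 libraries: untreated controls kept in sealed plates in parallel; RT, a radiation dose of 7 Gy for FaDu or 10 Gy for SAS; HT, hyperthermia at 42.5 °C for 60 min; and HT + RT, irradiation directly after heating. RNA was taken 0.5 h after treatment. Replicates are described in the paper as separate experiments.

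The 24 libraries held between 15203484 and 29452514 counts, with a median of 18378944. The lowest and highest totals were 17690374 and 21862472 in FaDu control, 16666024 and 23481395 in FaDu RT, 16794578 and 18188944 in FaDu HT, and 15203484 and 29452514 in FaDu HT + RT. In SAS they were 17797336 and 19645956 in control, 18556387 and 19831372 in RT, 18976390 and 20811396 in HT, and 16123061 and 20981315 in HT + RT. Replicates differed by more than sampling noise, which would give a chi-square near 1 per gene. Replicate 1 of FaDu stood apart in every FaDu group: against the other replicates its chi-square per gene was 13.6 to 19.5, whereas replicates 2 and 3 of FaDu gave 3.29 to 4.69 and SAS pairs gave 4.32 to 10.6. The members' log2 fold changes in FaDu HT and FaDu HT + RT are therefore also given without replicate 1. So are the counts of members that rose there, or passed in the other comparisons within FaDu, at an edgeR adjusted p below 0.05. Their counts there by DESeq2, by glmTreat, at an unadjusted p or beyond a log2 fold change of 1 use all libraries. Levels, shares of counts, likeness and the counts of other lists also use all libraries. The 10 epithelial markers (EPCAM, CDH1, KRT5, KRT14, KRT17, KRT6A, KRT8, KRT18, TP63 and SFN) were all above 1 CPM in every group, CPM being counts scaled to the library total with TMM factors computed over all 24 libraries. The most abundant was KRT17 in FaDu control (mean 4312 CPM) and KRT8 in SAS control (mean 4249 CPM). Summed over the 10, FaDu libraries held 11799 to 14439 CPM in control, 13828 to 16453 CPM in HT and 13464 to 15632 CPM in HT + RT, which overlapped the controls in both. SAS libraries held 10828 to 11907 CPM in control, 12478 to 13199 CPM in HT, above every control, and 11659 to 12453 CPM in HT + RT, which overlapped the controls. Single markers moved both ways. In SAS, KRT6A (log2 fold change 0.85, edgeR adjusted p = 2.84e-05), KRT18 (0.28, edgeR adjusted p = 0.0158), KRT8 (0.25, edgeR adjusted p = 0.0216) and KRT17 (0.23, edgeR adjusted p = 0.0376) rose with HT, the first 3 also with HT + RT, while SFN fell with HT (-0.40, edgeR adjusted p = 0.000596) and HT + RT (-0.43, edgeR adjusted p = 0.000705). In FaDu, TP63 fell with HT (-0.50, edgeR adjusted p = 0.00449) and HT + RT (-0.44, edgeR adjusted p = 0.00562), and no other marker of the 10 passed.

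HSP90 is an abundant ATP-driven chaperone that finishes the folding of client proteins, among them many kinases and steroid receptors, after HSP70 has bound them; in squamous carcinoma these include EGFR and other growth-promoting kinases. Its co-chaperones set where a client enters, how fast ATP is hydrolysed and when the client is released. HSP90AA1 is the more stress-responsive cytosolic paralog and HSP90AB1 the more constitutive, and transcription of many chaperone genes rises with heat through heat shock factor HSF1.

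Of the 10 members, 9 had promoter windows in the RefSeq table (build GRCh38.p14), 16 windows in all, each 250 bases before to 50 after a transcription start; FKBP4 had no entry. The windows were searched on both strands for arrays of the heat shock element unit, spelled GAANNTTCNNGAA or TTCNNGAANNTTC for 3 units and GAANNTTC or TTCNNGAA for 2 units. Every match to 3 units also contains a match to 2. Among all 35116 windows of that table, 0.49% held 3 units and 13.5% held 2 units. The 3-unit form was found in a window of HSP90AA1, HSP90AB1 and CHORDC1, and the 2-unit form in these and a window of STIP1. The remaining member windows, which included every window of FKBP5, AHSA1, CDC37, PTGES3 and UNC45A, did not hold these letters. A match is a description of the letters only.

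The HSP90 paralogs are introduced by the windows that hold the arrays, shown because both genes moved together with heat. Capitals mark the matched arrays, and positions count from the start base as 1.
HSP90AA1: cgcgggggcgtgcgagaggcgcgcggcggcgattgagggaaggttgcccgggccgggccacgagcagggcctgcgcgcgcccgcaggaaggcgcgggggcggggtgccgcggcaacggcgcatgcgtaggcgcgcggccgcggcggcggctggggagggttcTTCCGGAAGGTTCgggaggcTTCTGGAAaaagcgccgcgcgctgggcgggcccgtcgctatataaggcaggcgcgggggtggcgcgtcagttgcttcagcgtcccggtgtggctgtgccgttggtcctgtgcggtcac
HSP90AB1: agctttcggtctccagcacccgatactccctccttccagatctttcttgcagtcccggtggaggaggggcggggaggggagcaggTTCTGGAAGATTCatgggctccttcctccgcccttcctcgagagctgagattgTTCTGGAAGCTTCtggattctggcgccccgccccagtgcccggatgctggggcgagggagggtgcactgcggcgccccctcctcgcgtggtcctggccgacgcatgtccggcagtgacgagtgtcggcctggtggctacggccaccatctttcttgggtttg
The HSP90AA1 window is chr14:102086995-102087294, minus strand, with 3 units at -88 to -76 and 2 units at -68 to -61. The 3-unit array (chr14:102087120-102087132) lay upstream of 6, in an intron of 2 and in an exon of 1 of the 10 annotated transcripts. The HSP90AB1 window is chr6:44247693-44247992, plus strand, with 3 units at -165 to -153 and again at -112 to -100. Both arrays lay upstream of 1 and in an intron of 3 of its 4 transcripts.

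Levels are compared between genes as mean CPM per kilobase of the principal transcript, with the SD over 3 libraries. In FaDu control the order was HSP90AB1 970.3 ± 74.3, HSP90AA1 897 ± 75.8, PTGES3 299 ± 25.4, AHSA1 244 ± 10.2, STIP1 109 ± 7.18, CDC37 80.1 ± 2.51, FKBP4 77.2 ± 5.23, UNC45A 37 ± 2.09, CHORDC1 27.9 ± 7.32 and FKBP5 12.2 ± 0.50 CPM per kilobase. The HSP90 paralogs were neighbours in that order that differed by less than either SD. CDC37 and FKBP4, also neighbours, differed by less than the SD of FKBP4 but by more than that of CDC37. In SAS control the order was HSP90AA1 1137 ± 115, HSP90AB1 969 ± 25, PTGES3 291 ± 20.2, STIP1 279 ± 23.1, AHSA1 151 ± 11.7, CDC37 111 ± 0.917, CHORDC1 49.9 ± 9.13, FKBP4 49.4 ± 5.86, UNC45A 30.9 ± 0.399 and FKBP5 12.8 ± 0.729 CPM per kilobase. There PTGES3 with STIP1, and CHORDC1 with FKBP4, differed by less than an SD. After HT the level of FKBP4 was 184 ± 20.6 CPM per kilobase in FaDu and 206 ± 18.7 in SAS. It then stood above CDC37 in both lines, at 88.1 ± 5.85 CPM per kilobase in FaDu HT and 134 ± 3.14 in SAS HT.

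**Figure D1:**
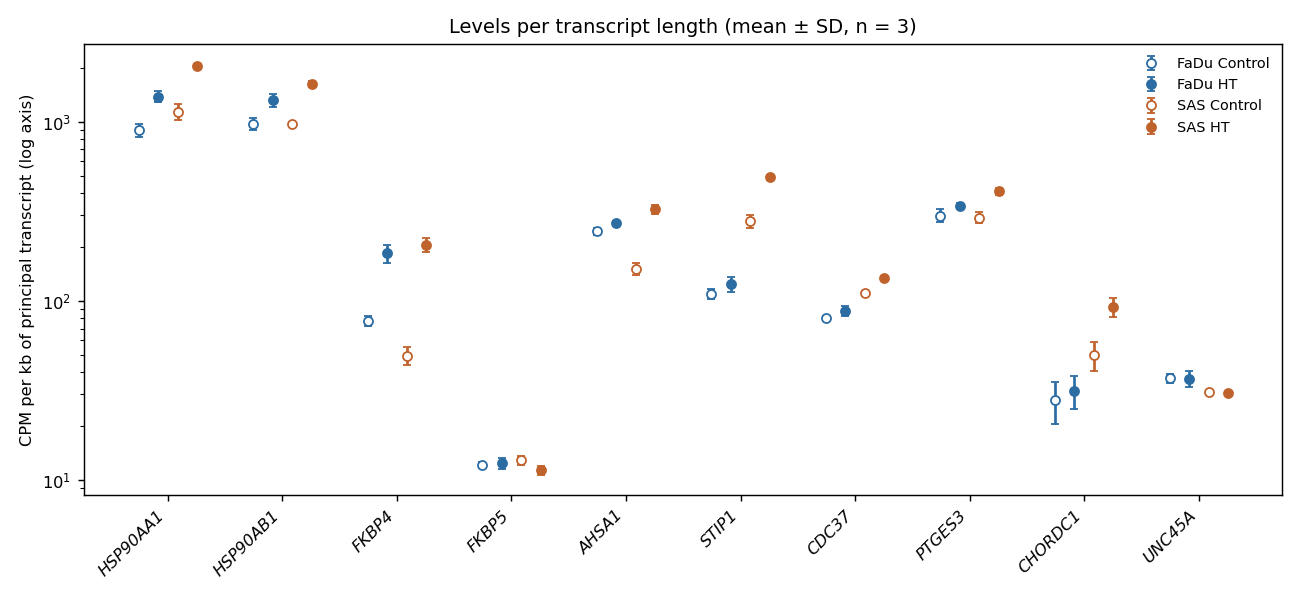
Mean level of each member in CPM per kilobase of its principal transcript (log axis) in the control (open) and HT (filled) groups of FaDu and SAS; points are means of 3 libraries and bars the SD. HSP90AA1 and HSP90AB1 stood above the other members in these 4 groups, and FKBP5 was lowest, at 12.2 ± 0.50 CPM per kilobase in FaDu control.

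Together the 10 members took a mean of 0.811% of all counts in FaDu control and 0.805% in SAS control. The share was 0.778% in FaDu RT and 0.80% in SAS RT, with ranges that overlapped those of the controls. It was 1.11% in FaDu HT (1.04 to 1.17%) and 1.2% in FaDu HT + RT (1.15 to 1.24%), and no FaDu control library exceeded 0.867%. In SAS the share was 1.37% with HT (1.36 to 1.38%) and 1.44% with HT + RT (1.42 to 1.46%), and no SAS control library exceeded 0.849%. HSP90AA1 and HSP90AB1 made up most of it, for example 1.03% of all counts in SAS HT. In bulk RNA, fewer cells and less RNA per cell cannot be told apart.

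To ask what each treatment did, HT and HT + RT were each compared with the untreated control of the same line by the edgeR quasi-likelihood test. A member rose or fell where the p-value adjusted over all genes tested was below 0.05, and it was called altered where the log2 fold change was also beyond 1 in size. The HT and HT + RT comparisons of a line share its control libraries, so they are not independent of each other. All 10 members passed the filter on low counts in every comparison. In FaDu HT, 3 of 10 members rose, against 7.95% of all genes tested, and 0 fell, against 9.69% of all genes. In FaDu HT + RT, 5 rose (9.52% of all genes) and 0 fell (9.78%). In SAS HT, 8 rose (12.2% of all genes) and 0 fell (11.4%), but FKBP5 fell when scaled by total counts alone. In SAS HT + RT, 8 rose (13.6% of all genes) and 0 fell (11.5%), with the same exception. FKBP5 also fell there in a fit that added replicate as a block, where 17.3% of all genes fell. At an unadjusted p under 0.05, 6, 7, 8 and 9 members differed in these comparisons, in that order, beside 30.8, 32, 35.5 and 36.1% of all genes. DESeq2 called 3, 6, 8 and 8 members higher, beside 8.27, 9.31, 11.2 and 12.3% of all genes, and 0 lower in each, beside 9.23, 9.11, 10.7 and 10.7%.

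The members' median log2 fold change was 0.20 in FaDu HT, 0.25 in FaDu HT + RT, 0.81 in SAS HT and 0.86 in SAS HT + RT. The median over all genes tested was 0.01, 0.01, 0.00 and 0.00. Altered members numbered 1 in FaDu HT (4.29% of all genes were altered upward), 1 in FaDu HT + RT (5.08%), 2 in SAS HT (5.31%) and 3 in SAS HT + RT (5.76%). Tested against a 1.5-fold change with glmTreat, 1 member rose in FaDu HT (2.76% of all genes did), 1 in FaDu HT + RT (3.57%), 6 in SAS HT (4.14%) and 7 in SAS HT + RT (4.63%).

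The FaDu counts moved with replicate 1. With replicate 1 left out of every FaDu group, an alternative chosen after seeing the data, 7 members rose in FaDu HT, where 13.8% of all genes did, and 7 in FaDu HT + RT (15.9% of all genes). A fit that added replicate as a block, which the paper does not name for its RNA-Seq test, also gave 7 in FaDu HT (15.6% of all genes) and 7 in FaDu HT + RT (16.5%), so calls over all genes rose in number together with those of the members. AHSA1, STIP1, PTGES3 and CHORDC1 were added in FaDu HT without replicate 1, and AHSA1, STIP1, PTGES3 and CDC37 with the block. With total counts in place of TMM scaling, 3 rose in FaDu HT + RT (7.74% of all genes), and with all groups of a line in 1 fit, 5 rose in FaDu HT (10.9%).

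**Figure D2:**
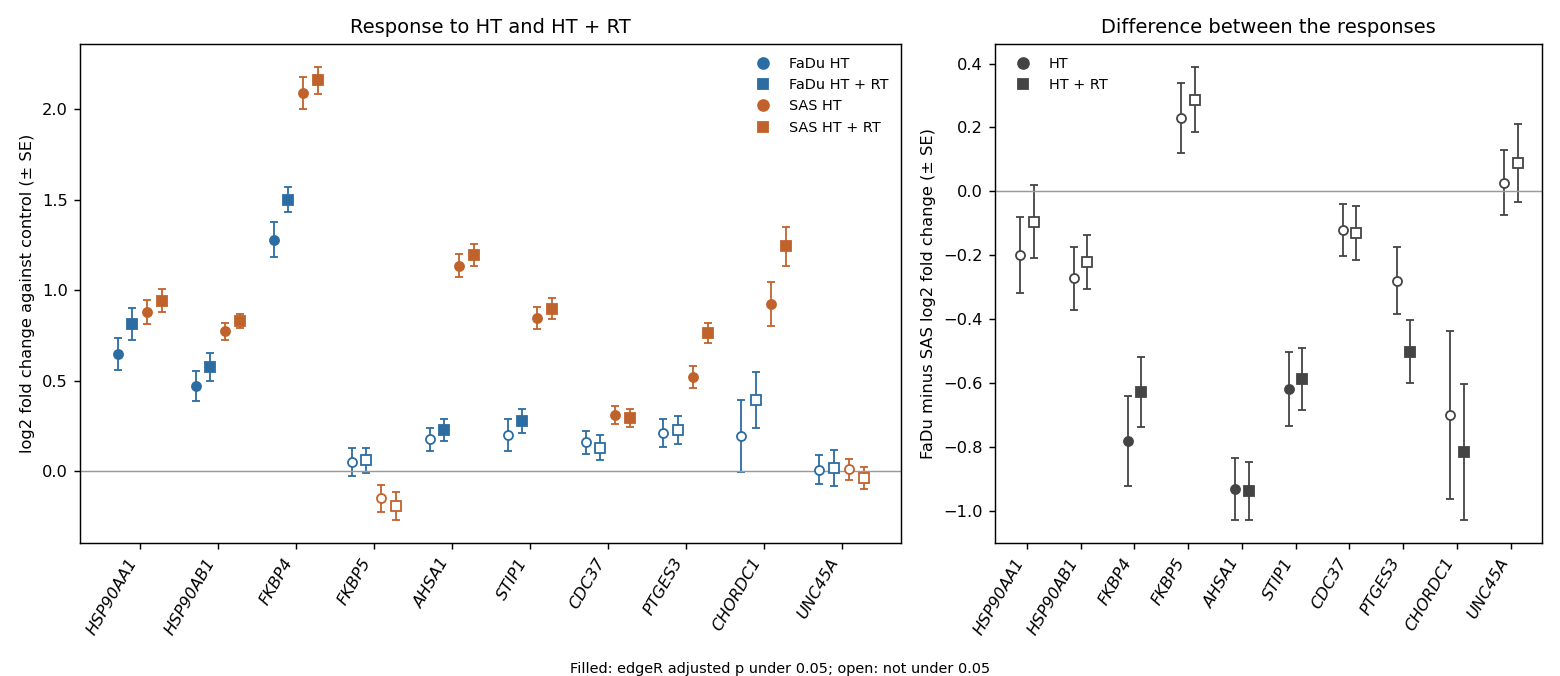
Left, log2 fold change of each member with HT and HT + RT against the control of the same line; right, the FaDu minus SAS difference of these log2 fold changes, with bars of 1 SE and filled points for an edgeR adjusted p below 0.05. FKBP4 was highest at 1.28 in FaDu HT and 2.09 in SAS HT, and the difference between lines was lowest for AHSA1 at -0.93 with HT.

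HSP90AA1 (ENSG00000080824) measured 3295, 2784 and 3014 CPM in the FaDu control libraries, 4686, 4325 and 4994 CPM in FaDu HT and 4798, 5363 and 5599 CPM in FaDu HT + RT. Every heated library was above every control, and the log2 fold change was 0.65 (SE 0.09, edgeR adjusted p = 0.00165) with HT and 0.81 (SE 0.09, edgeR adjusted p = 0.000367) with HT + RT. In SAS, HSP90AA1 measured 4015, 4110.0 and 3397 CPM in control, 6713, 6954 and 7019 CPM in HT and 7153, 7315 and 6887 CPM in HT + RT. The heated SAS libraries, too, were all above the controls, and HSP90AA1 rose by a log2 fold change of 0.88 (SE 0.07, edgeR adjusted p = 1.88e-06) with HT and 0.94 (SE 0.06, edgeR adjusted p = 6.24e-07) with HT + RT. Its window, printed with its arrays of 3 and 2 units, is the one described before.

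HSP90AB1 (ENSG00000096384) measured 2816, 2432 and 2535 CPM in FaDu control, 3869.9, 3331 and 3408 CPM in FaDu HT and 3979, 3706 and 3752 CPM in FaDu HT + RT. Replicate 1 was the highest library in all of these groups, and heated libraries stayed above all controls. The log2 fold change was 0.47 (SE 0.08, edgeR adjusted p = 0.00591) with HT and 0.57 (SE 0.08, edgeR adjusted p = 0.00111) with HT + RT. In SAS, HSP90AB1 measured 2649.8, 2609 and 2519 CPM in control, 4153, 4340.4 and 4496 CPM in HT and 4343, 4462 and 4544 CPM in HT + RT. Those groups stood clear of each other's range between control and heat, with log2 fold changes of 0.77 (SE 0.05, edgeR adjusted p = 4.09e-07) with HT and 0.83 (SE 0.04, edgeR adjusted p = 2.78e-08) with HT + RT. Left out of FaDu, replicate 1 changed neither call: HSP90AB1 rose by 0.48, edgeR adjusted p = 5.26e-07 in FaDu HT and 0.60, edgeR adjusted p = 7.41e-10 in FaDu HT + RT, and HSP90AA1 by 0.72, edgeR adjusted p = 1.09e-08 and 0.94, edgeR adjusted p = 5.25e-14.

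**Figure D3:**
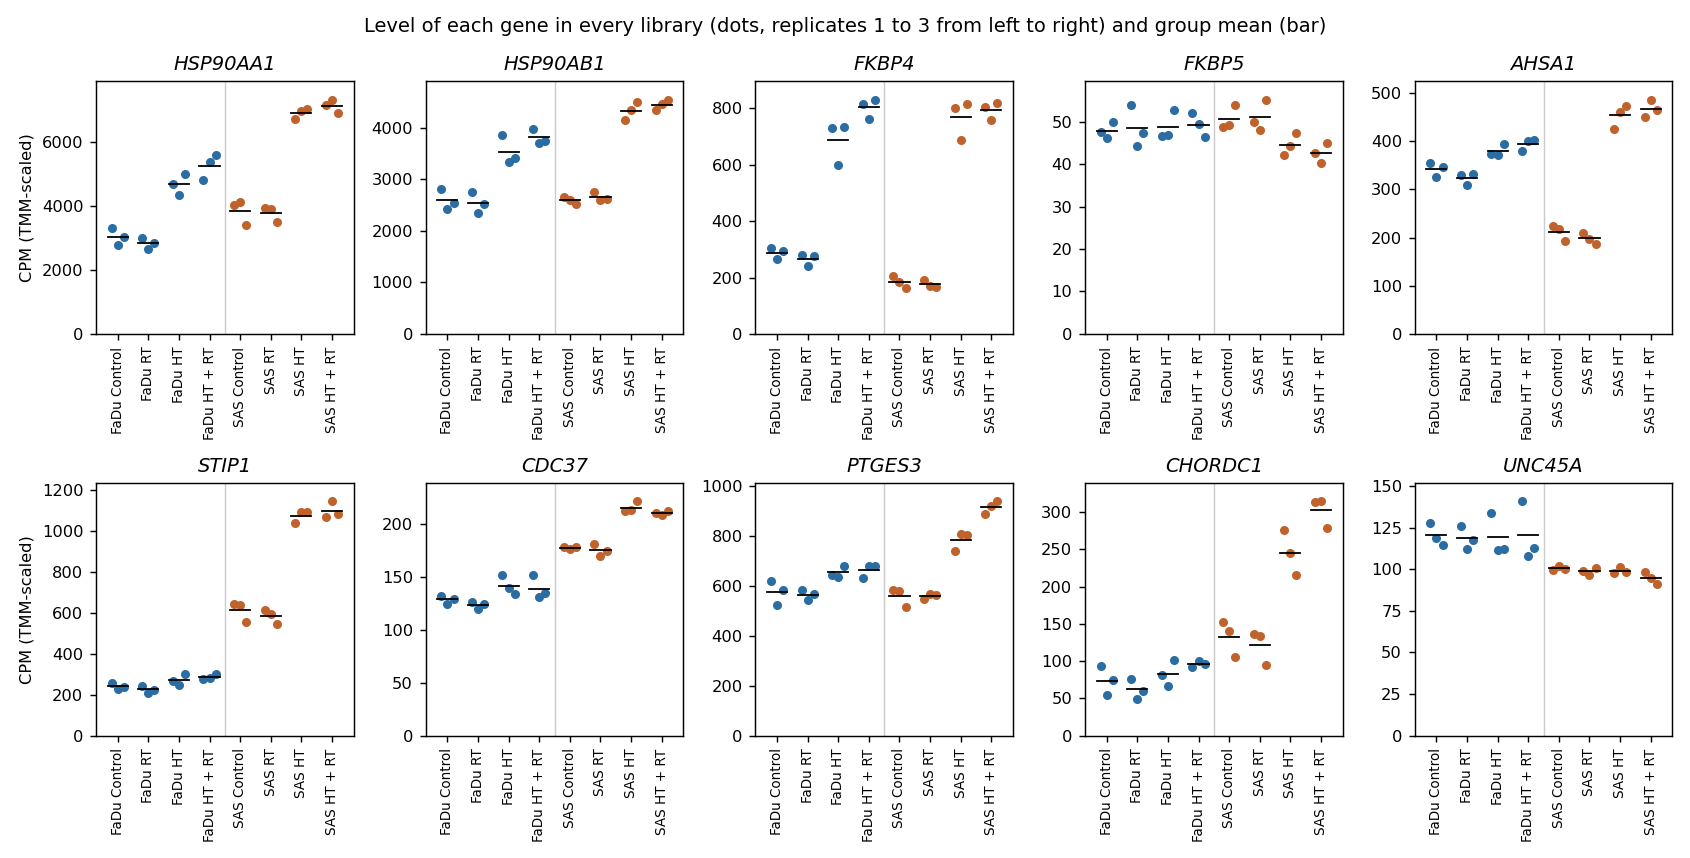
CPM of each member in every library (points) with the mean of each group (line), in the 8 groups of 3 libraries; axes start at 0. FKBP4 lay between 267 and 305 CPM in FaDu control and between 598 and 733 CPM in FaDu HT, whereas UNC45A overlapped between those groups.

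The ratio of HSP90AA1 to HSP90AB1 counts within a library does not depend on scaling, and it asks whether the paralogs moved equally. The 6 heated libraries of a line (HT and HT + RT) were compared with its 6 unheated libraries (control and RT) by a two-sided exact permutation test, with 4 such tests adjusted together. With replicate as a block, the unadjusted permutation p was 0.00926 in each of the 4, the smallest that design allows. It therefore does not rank the 4 differences. In FaDu the log2 ratio was 0.23, 0.19 and 0.25 in control, 0.13, 0.18 and 0.17 in RT, 0.28, 0.38 and 0.55 in HT and 0.27, 0.53 and 0.58 in HT + RT. All 6 heated FaDu libraries were above all 6 unheated ones, with replicate 1 the lowest of each heated group, and the means differed by 0.24 (exact permutation p = 0.00216, the smallest possible, adjusted p = 0.00289). In SAS the log2 ratio was 0.60, 0.66 and 0.43 in control, 0.52, 0.59 and 0.41 in RT, 0.69, 0.68 and 0.64 in HT and 0.72, 0.71 and 0.60 in HT + RT. The SAS ranges overlapped, and the means differed by 0.14 (exact permutation p = 0.00866, adjusted p = 0.00866). HSP90AA1 thus rose more than HSP90AB1 in both lines. Without FaDu replicate 1 the FaDu difference was 0.31, with an exact p of 0.0286, the smallest that design allows. Pseudogenes took few counts: HSP90AA2P had at most 69 and HSP90AB3P at most 52 in a library. WDR20, which overlaps HSP90AA1 on the opposite strand, had 12640 counts over all libraries against 2145159 for HSP90AA1.

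**Figure D4:**
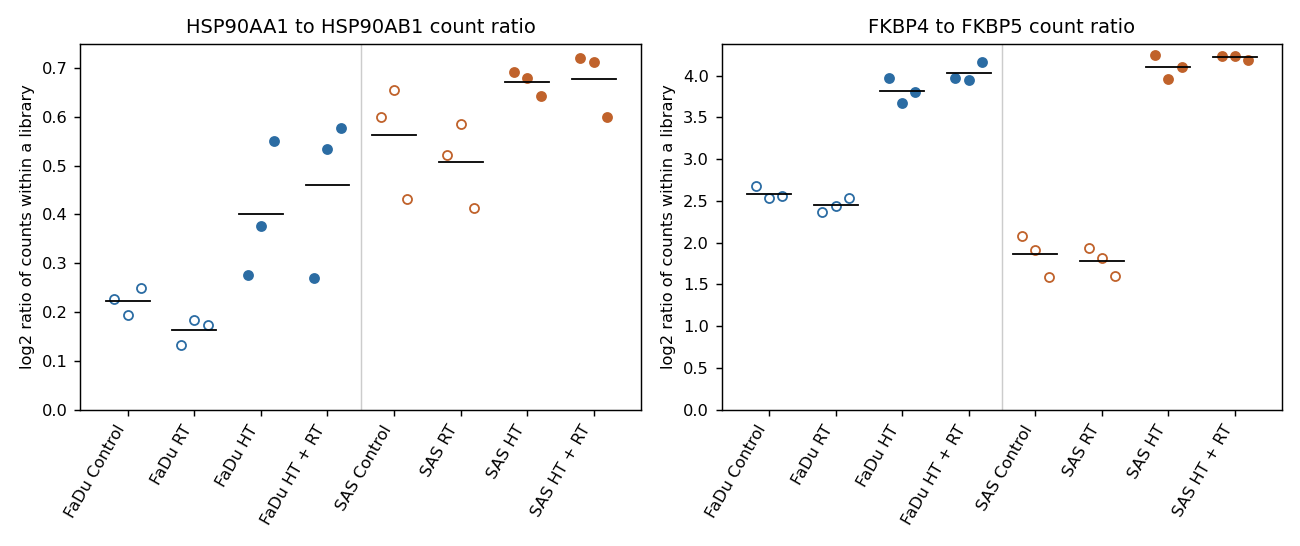
Log2 ratio of HSP90AA1 to HSP90AB1 counts and of FKBP4 to FKBP5 counts in every library, by group; points are libraries and lines group means. The FKBP4 to FKBP5 ratio ran from 1.59 to 2.08 in unheated SAS libraries and from 3.96 to 4.24 in heated ones.

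FKBP4 and FKBP5 encode immunophilins that bind HSP90 through tetratricopeptide repeats and act on steroid receptors, FKBP4 favouring and FKBP5 restraining the glucocorticoid receptor. FKBP4 (ENSG00000004478) measured 305, 267 and 293 CPM in FaDu control, 731, 598 and 733 CPM in FaDu HT and 816, 764 and 830.3 CPM in FaDu HT + RT. All heated libraries were above all controls, and replicate 2 was the lowest library of each group. FKBP4 rose by a log2 fold change of 1.28 (SE 0.09, edgeR adjusted p = 7.07e-05) with HT and 1.50 (SE 0.07, edgeR adjusted p = 2.10e-06) with HT + RT. In SAS, FKBP4 measured 206, 186 and 162 CPM in control, 800.4, 688 and 815 CPM in HT and 806, 759.7 and 820.2 CPM in HT + RT. The heated SAS libraries exceeded all SAS controls, and the log2 fold change was 2.09 (SE 0.09, edgeR adjusted p = 9.19e-09) with HT and 2.16 (SE 0.07, edgeR adjusted p = 2.06e-09) with HT + RT. FKBP4 was the member with the highest fold change in all 4 comparisons and was altered in each, also without FaDu replicate 1 (log2 fold change 1.29, edgeR adjusted p = 2.19e-12 in FaDu HT and 1.53, edgeR adjusted p = 5.78e-20 in FaDu HT + RT).

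FKBP5 (ENSG00000096060) measured 47.6, 46 and 50 CPM in FaDu control, 46.6, 46.9 and 52.6 CPM in FaDu HT and 51.9, 49.5 and 46.5 CPM in FaDu HT + RT. These groups overlapped, and FKBP5 did not pass in FaDu HT (log2 fold change 0.05, SE 0.08, edgeR adjusted p = 0.724) or FaDu HT + RT (0.06, SE 0.07, edgeR adjusted p = 0.618), nor without replicate 1 of FaDu (0.09, edgeR adjusted p = 0.467, and 0.01, edgeR adjusted p = 0.947). In SAS, FKBP5 measured 48.8, 49.1 and 53.9 CPM in control, 42.2, 44.3 and 47.3 CPM in HT and 42.7, 40.3 and 45.1 CPM in HT + RT. The heated SAS libraries were all below the controls, yet FKBP5 did not pass with TMM scaling in HT (-0.15, SE 0.08, edgeR adjusted p = 0.178) or HT + RT (-0.19, SE 0.08, edgeR adjusted p = 0.0884). It fell with total counts in place of TMM in SAS HT (-0.23, edgeR adjusted p = 0.0377) and SAS HT + RT (-0.28, edgeR adjusted p = 0.015), and with the replicate block in SAS HT + RT (-0.20, edgeR adjusted p = 0.0244).

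The log2 ratio of FKBP4 to FKBP5 counts averaged 2.52 ± 0.10 (SD) in the 6 unheated FaDu libraries and 3.92 ± 0.17 (SD) in the 6 heated ones. It averaged 1.82 ± 0.20 (SD) in unheated SAS and 4.16 ± 0.11 (SD) in heated SAS. Heated and unheated libraries did not overlap in either line. The difference was 1.40 (exact permutation p = 0.00216, the smallest possible, adjusted p = 0.00289) in FaDu and 2.34 (exact permutation p = 0.00216, the smallest possible, adjusted p = 0.00289) in SAS. Leaving out FaDu replicate 1 gave a FaDu difference of 1.38 (exact p = 0.0286, again the smallest possible).

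STIP1 (ENSG00000168439), also called HOP, is the adaptor that holds HSP70 and HSP90 together while a client is handed over. Its window with an array is shown because STIP1 responded differently in the lines.
STIP1: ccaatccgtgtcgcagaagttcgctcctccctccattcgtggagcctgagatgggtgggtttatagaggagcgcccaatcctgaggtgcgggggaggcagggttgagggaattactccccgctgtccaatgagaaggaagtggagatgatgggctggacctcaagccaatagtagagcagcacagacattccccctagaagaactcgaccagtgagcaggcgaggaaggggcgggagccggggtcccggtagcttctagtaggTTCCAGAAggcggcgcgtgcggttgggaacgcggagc
The window is chr11:64185921-64186220, plus strand, with 2 units in capitals at 14 to 21, upstream of 9, in an intron of 1 and in an exon of 2 of 12 transcripts. STIP1 measured 258, 227 and 237 CPM in FaDu control, 268, 247 and 299.6 CPM in FaDu HT and 275, 283 and 303 CPM in FaDu HT + RT. FaDu HT replicate 2 lay within the control range, whereas all HT + RT libraries were above it. STIP1 did not pass in FaDu HT (log2 fold change 0.20, SE 0.09, edgeR adjusted p = 0.164) and rose in FaDu HT + RT (0.28, SE 0.07, edgeR adjusted p = 0.0217). Once FaDu replicate 1 was left out it rose in both, by 0.27, edgeR adjusted p = 0.00498 and 0.36, edgeR adjusted p = 5.85e-06, and with the block it rose in FaDu HT (0.20, edgeR adjusted p = 0.0155). The HT + RT call was lost with total counts (0.18, edgeR adjusted p = 0.0767), and also without FaDu control replicate 2 (0.24, edgeR adjusted p = 0.0921), FaDu control replicate 3 (0.26, edgeR adjusted p = 0.0934), FaDu HT + RT replicate 2 (0.28, edgeR adjusted p = 0.0644) and FaDu HT + RT replicate 3 (0.24, edgeR adjusted p = 0.0996). In SAS, STIP1 measured 642, 640.1 and 553 CPM in control, 1041, 1095 and 1092 CPM in HT and 1069, 1145 and 1085 CPM in HT + RT. Every heated SAS library exceeded every control, and the log2 fold change was 0.85 (SE 0.06, edgeR adjusted p = 1.36e-06) with HT and 0.90 (SE 0.06, edgeR adjusted p = 6.16e-07) with HT + RT.

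AHSA1 (ENSG00000100591) activates the ATPase of HSP90. It measured 354, 326 and 346 CPM in FaDu control, 373, 372 and 394 CPM in FaDu HT and 379.9, 400.4 and 402 CPM in FaDu HT + RT. The heated FaDu libraries were above the controls by a small margin. AHSA1 did not pass in FaDu HT (log2 fold change 0.18, SE 0.06, edgeR adjusted p = 0.0972) and rose in FaDu HT + RT (0.23, SE 0.06, edgeR adjusted p = 0.0309). With replicate 1 of FaDu removed it rose in both, by 0.23, edgeR adjusted p = 0.0042 and 0.27, edgeR adjusted p = 0.00021, and with the block it rose in FaDu HT (0.18, edgeR adjusted p = 0.0084). The HT + RT call was lost with total counts (0.13, edgeR adjusted p = 0.144), and also without FaDu control replicate 2 (0.19, edgeR adjusted p = 0.117), FaDu control replicate 3 (0.23, edgeR adjusted p = 0.102), FaDu HT + RT replicate 2 (0.21, edgeR adjusted p = 0.106) and FaDu HT + RT replicate 3 (0.22, edgeR adjusted p = 0.116). In SAS, AHSA1 measured 223, 218 and 192 CPM in control, 426, 461 and 474 CPM in HT and 449.7, 486 and 464 CPM in HT + RT. The heated SAS libraries were far above the controls, and AHSA1 was altered with HT (1.14, SE 0.06, edgeR adjusted p = 1.55e-07) and HT + RT (1.20, SE 0.06, edgeR adjusted p = 5.94e-08). VIPAS39, on the opposite strand over AHSA1, had 17353 counts over all libraries against 160752 for AHSA1, and the strand setting of the counting is not given in the sources used here.

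PTGES3 (ENSG00000110958) binds the ATP-bound, closed form of HSP90 and slows ATP hydrolysis. It measured 619, 523 and 582 CPM in FaDu control, 645, 636 and 679.8 CPM in FaDu HT and 631, 681 and 679.6 CPM in FaDu HT + RT. Although the heated libraries did not overlap the controls, PTGES3 passed neither in FaDu HT (0.21, SE 0.08, edgeR adjusted p = 0.0981) nor in FaDu HT + RT (0.23, SE 0.08, edgeR adjusted p = 0.0684). Without FaDu replicate 1 it rose in both, by 0.29, edgeR adjusted p = 0.000711 and 0.32, edgeR adjusted p = 5.48e-05, and with the block by 0.21, edgeR adjusted p = 0.00344 and 0.23, edgeR adjusted p = 0.00305. It also rose in FaDu HT + RT without control replicate 1 alone (0.28, edgeR adjusted p = 0.0323) or HT + RT replicate 1 alone (0.26, edgeR adjusted p = 0.042). In SAS, PTGES3 measured 582, 581 and 514 CPM in control, 739.7, 807 and 803 CPM in HT and 887, 921 and 937 CPM in HT + RT. All 3 SAS groups were separate, with control lowest and HT + RT highest. PTGES3 rose by 0.52 (SE 0.06, edgeR adjusted p = 7.11e-05) with HT and 0.76 (SE 0.05, edgeR adjusted p = 1.20e-06) with HT + RT.

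CDC37 (ENSG00000105401) brings kinases to HSP90. It measured 132, 125 and 129.5 CPM in FaDu control and 152, 139 and 134 CPM in FaDu HT, groups separated by a narrow gap, and 152, 131 and 135 CPM in FaDu HT + RT, which overlapped the controls. CDC37 did not pass in FaDu HT (0.16, SE 0.06, edgeR adjusted p = 0.122) or FaDu HT + RT (0.13, SE 0.07, edgeR adjusted p = 0.232), nor without replicate 1 (0.14, edgeR adjusted p = 0.0738, and 0.08, edgeR adjusted p = 0.305). With the replicate block it rose in FaDu HT (0.16, edgeR adjusted p = 0.0226). In SAS, CDC37 measured 179, 176 and 179 CPM in control, 212, 214 and 222 CPM in HT and 211, 209 and 212 CPM in HT + RT. The heated SAS libraries were all above the controls, and CDC37 rose by 0.31 (SE 0.05, edgeR adjusted p = 0.00105) with HT and 0.29 (SE 0.05, edgeR adjusted p = 0.0011) with HT + RT, the smallest rise among members that passed in SAS.

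CHORDC1 (ENSG00000110172) encodes a cysteine- and histidine-rich protein that binds HSP90. Its window held the longest array among the members and is shown for that reason, with capitals marking the arrays.
CHORDC1: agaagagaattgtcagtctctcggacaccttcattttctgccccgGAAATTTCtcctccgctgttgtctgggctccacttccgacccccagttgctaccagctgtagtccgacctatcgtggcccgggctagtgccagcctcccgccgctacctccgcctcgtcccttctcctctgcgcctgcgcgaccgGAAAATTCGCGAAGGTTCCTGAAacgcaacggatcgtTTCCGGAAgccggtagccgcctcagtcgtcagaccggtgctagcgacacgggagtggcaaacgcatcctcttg
The window is chr11:90223000-90223299, minus strand, with 5 units at -60 to -38 and 2 units at -205 to -198 and at -23 to -16. The 5-unit array (chr11:90223087-90223109) lay upstream of 10 and in an exon of 1 of 11 transcripts. CHORDC1 measured 93, 54.2 and 74.7 CPM in FaDu control, 81.7, 66.3 and 101 CPM in FaDu HT and 91.6, 99.6 and 95.9 CPM in FaDu HT + RT. FaDu control replicate 1 was close to the heated libraries and the groups overlapped. CHORDC1 did not pass in FaDu HT (0.19, SE 0.20, edgeR adjusted p = 0.571) or FaDu HT + RT (0.39, SE 0.16, edgeR adjusted p = 0.12). Without FaDu replicate 1 it rose in both, by 0.41, edgeR adjusted p = 0.0197 and 0.61, edgeR adjusted p = 7.25e-07, and with the block it rose in FaDu HT + RT (0.42, edgeR adjusted p = 0.000912). Leaving out FaDu control replicate 1 alone was enough for the HT + RT call (0.59, edgeR adjusted p = 0.0107). In SAS, CHORDC1 measured 152, 139.8 and 105 CPM in control, 276, 245 and 215 CPM in HT and 314, 314 and 278 CPM in HT + RT. The heated SAS libraries were above all controls. CHORDC1 rose by 0.92 (SE 0.12, edgeR adjusted p = 0.000183) with HT and was altered with HT + RT (1.24, SE 0.11, edgeR adjusted p = 6.49e-06). It was altered with HT too without SAS control replicate 1 (log2 fold change 1.02) or SAS HT replicate 3 (1.02).

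**Figure D5:**
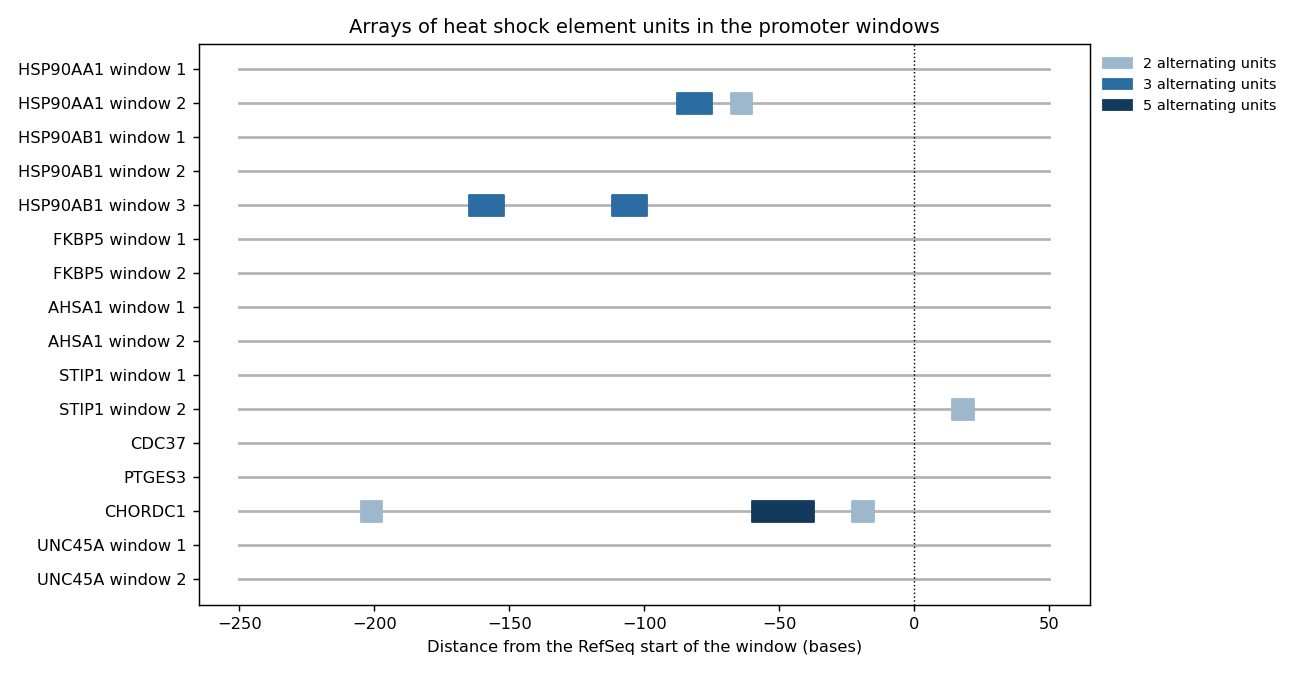
Position of heat shock element arrays in the member promoter windows, in bases from the transcription start; each line is a window and each bar an array, coloured by its number of units. Arrays of 3 or more units lay in 1 window each of HSP90AA1, HSP90AB1 and CHORDC1, and CHORDC1 held the array of 5 units.

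UNC45A (ENSG00000140553) is a chaperone of myosin that also binds HSP90. It measured 128, 119 and 115 CPM in FaDu control, 134, 112 and 112 CPM in FaDu HT and 141, 108 and 113 CPM in FaDu HT + RT. In SAS it measured 99.5, 102 and 100.3 CPM in control, 97.8, 101 and 98.1 CPM in HT and 98.5, 94.7 and 90.9 CPM in HT + RT. UNC45A overlapped between control and HT in both lines, although its SAS HT + RT libraries were below the SAS controls. It did not pass in FaDu HT (0.01, SE 0.08, edgeR adjusted p = 0.962), FaDu HT + RT (0.02, SE 0.10, edgeR adjusted p = 0.931), SAS HT (0.01, SE 0.06, edgeR adjusted p = 0.921) or SAS HT + RT (-0.04, SE 0.06, edgeR adjusted p = 0.70). Its direction is not settled in the first 3 of these, since its mean CPM was lower than in control in FaDu HT, FaDu HT + RT and SAS HT, while the test, with TMM factors from the groups compared alone, gave values just above 0. Its log2 fold change turned negative in FaDu HT (-0.02) and FaDu HT + RT (-0.06) without FaDu replicate 1, and with total counts it was -0.07, -0.08 and -0.07 in FaDu HT, FaDu HT + RT and SAS HT. HDDC3 on the opposite strand had 10374 counts over all libraries against 50573 for UNC45A.

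Radiation alone was compared with control in each line to ask whether the members respond to it. In FaDu RT, 0 of 10 members passed by edgeR, where 0.0322% of all genes did, and 0 members had an unadjusted p under 0.05, against 5.09% of all genes. DESeq2 also called 0 members there (0.399% of all genes), and the log2 fold changes ran from -0.25 (CHORDC1) to 0.02. With the replicate block CHORDC1 fell in FaDu RT (-0.25, edgeR adjusted p = 0.0145), where 0.675% of all genes fell. In SAS RT, 0 members passed by edgeR (0.0749% of all genes did), 0 had an unadjusted p under 0.05 (5.68% of all genes), and DESeq2 called 0 (0.32% of all genes). The SAS RT log2 fold changes ran from -0.12 to 0.04. Removing FaDu replicate 1 also left 0 members passing in FaDu RT by edgeR, where 1.21% of all genes did.

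HT + RT was compared with HT to ask what radiation added in heated spheroids. In FaDu, 0 members passed by edgeR, 0% of all genes did, and 1 member had an unadjusted p under 0.05 (2.24% of all genes had). That member was FKBP4, with a log2 difference of 0.21 (unadjusted p = 0.0443, edgeR), and DESeq2 called 0 members (0.0434% of all genes). With the replicate block FKBP4 rose (0.22, edgeR adjusted p = 0.00674), as did 0.712% of all genes. Omitting FaDu replicate 1 gave 0 members by edgeR as well (0.249% of all genes). In SAS, 0 members passed by edgeR, 0% of all genes did, and 2 members had an unadjusted p under 0.05 (4.39% of all genes had), while DESeq2 called 0 (0.241% of all genes). They were PTGES3, with a log2 difference of 0.24 (unadjusted p = 0.000432, adjusted p = 0.237, edgeR), and CHORDC1, with 0.31 (unadjusted p = 0.00369, adjusted p = 0.673, edgeR). All SAS HT + RT libraries were above all SAS HT libraries for both genes. Both passed with the replicate block (PTGES3 0.24, edgeR adjusted p = 0.00113; CHORDC1 0.32, edgeR adjusted p = 0.000798) and with no filter on low counts (PTGES3 0.23, edgeR adjusted p = 0.00687; CHORDC1 0.30, edgeR adjusted p = 0.000434). Of all genes, 0.828% rose with the block and 0.266% with no filter.

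The untreated controls were compared to ask how the lines differ at baseline. In FaDu, 3 members were higher than in SAS (38.6% of all genes were) and 4 were lower (36.4%), shares near the background, and these counts were also 3 (38.6% of all genes) and 4 (36.2%) without FaDu replicate 1. STIP1 was the altered member, with a log2 difference of FaDu minus SAS of -1.32 (SE 0.08, edgeR adjusted p = 7.39e-08), beside 16.9% of all genes altered downward. FaDu libraries measured 258, 227 and 237 CPM for STIP1 and SAS libraries 642, 640.1 and 553 CPM, without overlap. The other members lower in FaDu were CHORDC1 (-0.81, adjusted p = 0.00153, edgeR), CDC37 (-0.44, 4.03e-05) and HSP90AA1 (-0.31, 0.00791). Those higher in FaDu were AHSA1 (0.73, adjusted p = 3.47e-06, edgeR), FKBP4 (0.67, 3.55e-05) and UNC45A (0.29, 0.0020). With total counts the median log2 difference over all genes moved from 0.03 to 0.20. On that scale HSP90AA1 no longer passed (-0.14, edgeR adjusted p = 0.131), while HSP90AB1 (0.20, edgeR adjusted p = 0.0108) and PTGES3 (0.24, edgeR adjusted p = 0.0117) were higher in FaDu. Without FaDu control replicate 1, CHORDC1 was altered as well (-1.0, edgeR adjusted p = 1.50e-05), and 17.3% of all genes were altered downward.

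Whether the lines responded differently was tested as the interaction of line with treatment, given as the FaDu minus the SAS log2 fold change. With HT, 3 members had a lower response in FaDu, where 3.25% of all genes did. They were AHSA1 (-0.93, SE 0.10, edgeR adjusted p = 3.34e-05), FKBP4 (-0.78, SE 0.14, edgeR adjusted p = 0.00359) and STIP1 (-0.62, SE 0.12, edgeR adjusted p = 0.00479). FKBP4 rose in both lines, whereas AHSA1 and STIP1 rose with HT in SAS and, in FaDu, only under some of the alternatives. In the controls FKBP4 (0.67) and AHSA1 (0.73) were higher in FaDu and STIP1 (-1.32) was lower. With HT, FKBP4 averaged 687 ± 77.1 (SD) CPM in FaDu and 768 ± 69.6 CPM in SAS. AHSA1 averaged 380 ± 12.8 and 454 ± 24.7 CPM there, and STIP1 272 ± 26.5 and 1076 ± 30.3 CPM. CHORDC1 (-0.70, SE 0.26, edgeR adjusted p = 0.159), PTGES3 (-0.28, SE 0.10, edgeR adjusted p = 0.156), HSP90AB1 (-0.27, SE 0.10, edgeR adjusted p = 0.143) and HSP90AA1 (-0.20, SE 0.12, edgeR adjusted p = 0.44) did not pass, nor did FKBP5 (0.23), CDC37 (-0.12) or UNC45A (0.03). With the replicate block the count was 6 (5.89% of all genes), and CHORDC1 (-0.70, edgeR adjusted p = 0.000363), HSP90AB1 (-0.27, edgeR adjusted p = 0.0186) and PTGES3 (-0.28, edgeR adjusted p = 0.0424) passed as well. It was also 6 with no filter on low counts (833 of 38017 genes), where those 3 members were again the ones added. With all groups in 1 fit it was 5 (4.76%), with HSP90AB1 and PTGES3 added. Only HSP90AB1 was added, for a count of 4, without FaDu replicate 1 (-0.27, edgeR adjusted p = 0.0473; 3.61% of all genes) and with total counts (-0.30, edgeR adjusted p = 0.0443; 3.64%). HSP90AB1 passed without FaDu HT replicate 1 alone too (-0.38, edgeR adjusted p = 0.0195).

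With HT + RT, 5 members had a lower response in FaDu (4.28% of all genes). The radiation dose was higher in SAS than in FaDu, so this comparison does not separate line from dose. The part of dose was not tested. AHSA1 (-0.94, SE 0.09, edgeR adjusted p = 9.49e-06), FKBP4 (-0.63, SE 0.11, edgeR adjusted p = 0.0020) and STIP1 (-0.59, SE 0.10, edgeR adjusted p = 0.00145) passed here too, in a test that uses the same control libraries. PTGES3 (-0.50, SE 0.10, edgeR adjusted p = 0.00477) and CHORDC1 (-0.81, SE 0.21, edgeR adjusted p = 0.0301) also passed. CHORDC1 no longer passed without FaDu replicate 1 in all groups (-0.59, edgeR adjusted p = 0.053), and also without FaDu control replicate 1 (-0.62, edgeR adjusted p = 0.051), FaDu control replicate 3 (-0.81, edgeR adjusted p = 0.063), SAS HT + RT replicate 1 (-0.83, edgeR adjusted p = 0.0528) and SAS HT + RT replicate 2 (-0.84, edgeR adjusted p = 0.0519). HSP90AB1 (-0.22, SE 0.08, edgeR adjusted p = 0.147) and HSP90AA1 (-0.09, SE 0.11, edgeR adjusted p = 0.739) did not pass. HSP90AB1 passed with the replicate block (-0.22, edgeR adjusted p = 0.0178), with total counts (-0.26, edgeR adjusted p = 0.0387) and without FaDu HT + RT replicate 1 (-0.30, edgeR adjusted p = 0.0406). FKBP5 (0.29), CDC37 (-0.13) and UNC45A (0.09) did not pass either. With the block, 6 members had a lower response in FaDu (7.53% of all genes), and FKBP5 had a higher one (0.28, edgeR adjusted p = 0.0436; 7.43% of all genes).

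Across the 8 groups, Pearson r was computed between group means of log2 CPM after subtracting each line's mean, a description over points that share control groups and cell lines. HSP90AB1 followed HSP90AA1 at r = 0.994 and FKBP4 at 0.998, and AHSA1 followed STIP1 at 0.994. FKBP5 ran opposite to HSP90AA1 (-0.665) and AHSA1 (-0.939) over both lines together. In FaDu alone its mean did not fall with heat, at 47.9 CPM in control, 48.7 CPM in HT and 49.3 CPM in HT + RT. Among 9482 protein-coding genes with a mean of at least 10 CPM, those most like HSP90AA1 were DNAJA4 (r = 0.997), NKRF (0.997), ENGASE (0.997), ETNK1 (0.996) and WSB1 (0.996). Those most like HSP90AB1, apart from the member FKBP4 given above, were HSBP1L1 (r = 0.999), ENGASE (0.999), DNAJA1 (0.998), RSRC2 (0.998) and HSPD1 (0.998). For FKBP5 they were ATXN7L3 (r = 0.998), CELSR1 (0.997), PATL1 (0.995), DOP1A (0.995) and LARP1 (0.994). The nearest gene was DNAJA1 for FKBP4 (r = 1.0), NUCB1 for AHSA1 (0.999), C18orf25 for STIP1 (0.999), SENP6 for CDC37 (0.999), CHAC2 for PTGES3 (0.994), UBE2B for CHORDC1 (0.996) and CDC37L1 for UNC45A (0.989).

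Other genes of the HSP90 system were taken from fixed lists and counted with the same tests. Over all genes tested, 7.95, 9.52, 12.2 and 13.6% rose and 9.69, 9.78, 11.4 and 11.5% fell in FaDu HT, FaDu HT + RT, SAS HT and SAS HT + RT, and each list's share of its tested genes is given in parentheses to be read beside these. Of 32 other co-chaperones and adaptors, 2 rose (7.14%) and 5 fell (17.9%) among 28 tested in FaDu HT, 2 rose (7.14%) and 5 fell (17.9%) among 28 tested in FaDu HT + RT, 7 rose (24.1%) and 4 fell (13.8%) among 29 tested in SAS HT and 7 rose (25%) and 5 fell (17.9%) among 28 tested in SAS HT + RT. Their median log2 fold change was -0.01, -0.01, -0.01 and -0.01 in the same order, beside medians over all genes of 0.01, 0.01, 0.00 and 0.00. CACYBP, an adaptor related to the co-chaperone SGT1, rose by 0.88, 1.06, 1.55 and 1.64 in these comparisons, and AHSA2P, a relative of AHSA1, by 0.61, 0.65, 1.30 and 1.38. The nuclear distribution protein NUDC rose in SAS HT (0.95) and SAS HT + RT (1.04), and did not pass in FaDu HT (0.24, edgeR adjusted p = 0.10) or FaDu HT + RT (0.26, edgeR adjusted p = 0.0662). TELO2, whose complex brings kinases of the PI3K-related family to HSP90, fell in all 4 (-0.64, -0.60, -0.22 and -0.31). Its partners TTI1 (-0.63, -0.52, -0.27 and -0.27) and TTI2 (-0.48, -0.50, -0.61 and -0.43) also fell in all 4. The organelle paralogs HSP90B1 and TRAP1 did not pass by edgeR in any of these comparisons, and their log2 fold changes lay between 0.12 and 0.25 in FaDu HT and between 0.07 and 0.10 in SAS HT.

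The list of HSP70 genes and their partners held 11 genes, and 11 were tested in each comparison. In FaDu HT 7 rose (63.6%) and 1 fell (9.09%), and in FaDu HT + RT 8 rose (72.7%) and 1 fell (9.09%). In SAS HT 8 rose (72.7%) and 0 fell (0%), and in SAS HT + RT 9 rose (81.8%) and 0 fell (0%). The median log2 fold change of these 11 genes was 1.15, 1.36, 1.87 and 1.96 in the same order. The inducible HSP70 gene HSPA1B rose by 5.0, 4.97, 4.68 and 4.78, HSPA1A by 4.80, 4.88, 4.56 and 4.69 and the J-domain partner DNAJB1 by 4.96, 5.08, 4.23 and 4.31, each more than any member. DNAJA1 rose by 1.15, 1.36, 1.87 and 1.96. Of 39 HSP90 clients, 0 rose (0%) and 2 fell (5.26%) among 38 tested in FaDu HT, 0 rose (0%) and 1 fell (2.63%) among 38 tested in FaDu HT + RT, 5 rose (13.5%) and 7 fell (18.9%) among 37 tested in SAS HT and 7 rose (18.9%) and 8 fell (21.6%) among 37 tested in SAS HT + RT. Their median log2 fold change was -0.11, -0.06, 0.00 and -0.03 in the same order. Single clients moved both ways in SAS. There ERN1 (0.60 with HT and 0.75 with HT + RT) and EIF2AK2 (0.30 and 0.43) rose. MET fell with HT in FaDu (-0.36) and in SAS (-0.35). EGFR fell in SAS HT (-0.39, edgeR adjusted p = 0.016) and SAS HT + RT (-0.39, edgeR adjusted p = 0.0358), and did not pass in FaDu HT (0.10, edgeR adjusted p = 0.565) or FaDu HT + RT (0.11, edgeR adjusted p = 0.339). Of 12 glucocorticoid receptor targets, 3 rose (27.3%) and 0 fell (0%) among 11 tested in FaDu HT, 5 rose (45.5%) and 0 fell (0%) among 11 tested in FaDu HT + RT, 2 rose (18.2%) and 2 fell (18.2%) among 11 tested in SAS HT and 3 rose (27.3%) and 1 fell (9.09%) among 11 tested in SAS HT + RT, with medians of 0.27, 0.30, -0.16 and 0.03 in the same order. Among them DUSP1 rose by 4.73, 5.03, 1.81 and 1.81. In FaDu, ERRFI1 (1.05) and CEBPD (0.84) also rose with HT, and ERRFI1 (1.11) and SGK1 (1.09) with HT + RT. CEBPD rose in SAS too, by 1.13 with HT and 1.30 with HT + RT. SGK1 (-0.67) and DDIT4 (-0.41) fell in SAS HT, and DDIT4 (-0.26) in SAS HT + RT. The member FKBP5, a known target of that receptor that is not in this list, did not rise in any of these comparisons. Of 6 HSP90 modifying enzymes and HSF1, 1 rose (16.7%) and 1 fell (16.7%) among 6 tested in FaDu HT, 0 rose (0%) and 1 fell (16.7%) among 6 tested in FaDu HT + RT, 0 rose (0%) and 0 fell (0%) among 6 tested in SAS HT and 0 rose (0%) and 0 fell (0%) among 6 tested in SAS HT + RT, with medians of 0.08, 0.11, 0.07 and -0.01 in the same order. Of 9 HSP90 pseudogenes, 2 were tested, and HSP90AA2P rose in FaDu HT (0.98), SAS HT (1.0) and SAS HT + RT (1.16) and did not pass in FaDu HT + RT (0.73, edgeR adjusted p = 0.15).

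Markers of fibroblasts and endothelium were read in the same libraries. Of 5 fibroblast markers, 4 (COL1A2, COL3A1, DCN and PDGFRB) were below 1 CPM in every group, and the most abundant, COL1A1, averaged 41.9 CPM in FaDu control and 1.33 CPM in SAS control. In FaDu, COL1A1 averaged 53.8 CPM with HT and 55.9 CPM with HT + RT, and did not pass in HT (log2 fold change 0.39, edgeR adjusted p = 0.0873) or HT + RT (0.44, edgeR adjusted p = 0.0625). The summed fibroblast markers were 36.1 to 47.6 CPM in FaDu control libraries, 48.4 to 64 CPM in FaDu HT, above every control, and 45.2 to 65.8 CPM in FaDu HT + RT, which overlapped the controls. In SAS, COL1A1 averaged 23.6 CPM with HT and 24.1 CPM with HT + RT and rose in both (log2 fold change 4.18, edgeR adjusted p = 6.35e-07 and 4.23, edgeR adjusted p = 1.18e-08), so that the summed fibroblast markers moved with heat from 1.31 to 2.36 CPM in control libraries to 16.8 to 31 CPM in SAS HT and 24.1 to 24.9 CPM in SAS HT + RT. Of the endothelial markers, KDR was at 0 in both controls and CDH5 was the most abundant, with 4.19 CPM in FaDu control and 14.5 CPM in SAS control. The summed endothelial markers were 7.66 to 8.71 CPM in FaDu control, and lower in every heated FaDu library, at 6.44 to 7.16 CPM with HT and 6.17 to 6.87 CPM with HT + RT. In SAS they overlapped, at 10.9 to 20.7 CPM in control, 9.54 to 22.1 CPM in HT and 11.5 to 23 CPM in HT + RT. The paper describes both spheroid models as mono-cultures. The part of these markers in the members' rises was not tested.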

How the data were processed

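Per the labels, total RNA of 24 spheroid libraries was sequenced; a directional kit was used. The deposited raw tables hold a count of reads per gene that the authors made before any scaling. The deposited normalized signal is the same count divided by a size factor per library. The aligner, counting program and strand setting are not given in the sources used here, and the submitters' notes name the mouse build mm9 although all identifiers are human. Promoter windows and their coordinates come from RefSeq on GRCh38.p14. Symbols and transcripts come from GENCODE v29, which held 56898 of the 57500 identifiers.

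The test was edgeR 4.0.16 (R 4.3.3) with TMM scaling, filterByExpr with a minimum count of 10, the quasi-likelihood test, and Benjamini-Hochberg adjustment over all genes in each of 11 comparisons, using only the groups compared. The SE is |log2 fold change| over the root of the F statistic. Ratios used 0.5 added to each count. Alternatives were DESeq2 1.42.0, RLE factors, total counts only, no filter, 10 counts in every library, all groups in 1 fit, a replicate block, glmTreat at 1.5-fold, pseudogene counts added, limma 3.58.1 on log2 of the deposited signal plus 1, and each library left out. Leaving FaDu replicate 1 out of every group was chosen after seeing the data. Deviations of same-numbered libraries correlated above 0.1 in every pair for RT and HT + RT against control and for HT + RT against HT in both lines, for FaDu HT and for the difference between lines with HT + RT. They did not in every pair for SAS HT, the controls of the lines or the difference with HT. The paper used a paired test for its PCR values and names no block for the RNA-Seq test, so the block is given as an alternative.

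All 10 members were named. From each list, up to 3 genes per direction could be named that passed, averaged 1 or more in log2 CPM and did not overlap between groups, with the highest log2 fold changes in size. DNAJA1 and EGFR are also given because they are named elsewhere in the text. Likeness is Pearson r over 8 group means. One list of markers is not reported here. Members and lists were chosen with earlier results of these data known.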

Additional observations from a re-analysis of the deposited data

Results flagged for a closer look

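The tested difference between the lines, FaDu minus SAS in log2 fold change, passed at an edgeR adjusted p below 0.05 for 3 members with HT (3.25% of all genes were lower in FaDu) and 5 with HT + RT (4.28%). With HT it was -0.78 for FKBP4, -0.93 for AHSA1 and -0.62 for STIP1. With HT + RT it was -0.63 for FKBP4, -0.94 for AHSA1, -0.59 for STIP1, -0.50 for PTGES3 and -0.81 for CHORDC1. In each the response was lower in FaDu, while FKBP4 and AHSA1 were higher in FaDu control than in SAS control and STIP1 and CHORDC1 lower. The CHORDC1 call was lost without FaDu replicate 1 (-0.59, edgeR adjusted p = 0.053) and without any 1 of 4 single libraries. Both tests use the same control libraries. With HT + RT the radiation dose was also higher in SAS than in FaDu, so that test does not separate line from dose. The cause of these differences was not tested.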

How the results depend on the processing

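Of the counts of members, 539 stayed within 1.5 times the value reported and 34 did not. Of the members' log2 fold changes, 1218 kept their direction and their side of the threshold, 47 passed only under the alternative, 36 passed only as reported and 32 changed sign. All 58 values of the ratios kept theirs.

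With the replicate block, 1 member fell in FaDu RT, 7 rose in FaDu HT, 1 rose in FaDu HT + RT against HT, 1 fell in SAS HT + RT (17.3% of all genes) and 2 rose in SAS HT + RT against HT. With it 6 members had the higher response in SAS to HT, and 1 had the higher response in FaDu to HT + RT. The members' calls that the block changed are those given with it beside the results, and it changed no other. With all groups in 1 fit, 5 rose in FaDu HT and 5 had the higher response in SAS to HT. With no filter on low counts, 2 rose in SAS HT + RT against HT and 6 had the higher response in SAS to HT. With total counts only, 3 rose in FaDu HT + RT, 1 fell in SAS HT (18.5% of all genes), 1 fell in SAS HT + RT (19.7%) and 5 were higher in FaDu than SAS controls (45.1%). Without FaDu replicate 1, an alternative chosen after seeing the data, 7 rose in FaDu HT and 2 were altered between the controls. The cause of these changes was not tested. Against a 1.5-fold change, a stricter hypothesis, glmTreat called 1 member in FaDu HT, 1 in FaDu HT + RT, 1 higher (24% of all genes) and 1 lower (20.9%) in FaDu controls, and 1 with the higher response in SAS to each of HT (0.848%) and HT + RT (1.15%).

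Leaving out each library in turn, members that rose in FaDu HT + RT ranged from 3 to 7 (all genes from 5.97 to 11.4%), members altered between controls from 1 to 2 (genes altered downward from 16.6 to 17.3%), and members whose response was over 2-fold higher in SAS from 0 to 1 with HT (all genes from 1.12 to 1.68%) and from 0 to 1 with HT + RT (1.55 to 2.05%). The last was AHSA1 in both: with HT it passed 2-fold without FaDu HT replicate 3, SAS control replicate 1 or SAS HT replicate 1, and with HT + RT without SAS control replicate 1 or 2 or SAS HT + RT replicate 1.

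The values that changed sign were those of members near 0, and none passed. With total counts only, FKBP5 was -0.031 in FaDu HT, -0.034 in FaDu HT + RT and 0.12 between controls. On that scale UNC45A was -0.073 in FaDu HT, -0.077 in FaDu HT + RT, -0.068 in SAS HT and -0.0053 in the difference between lines with HT. With no filter UNC45A was -0.016 in FaDu HT and -0.012 in that difference, and with all groups in 1 fit -0.017. Without FaDu replicate 1 UNC45A was -0.024 in FaDu HT, -0.065 in FaDu HT + RT and -0.0083 in the difference with HT; HSP90AB1 was -0.026 between controls and HSP90AA1 0.032 in the difference with HT + RT. Leaving out each library, the log2 value ran from -0.015 to 0.091 for FKBP5 in FaDu HT and from -0.026 to 0.081 for HSP90AB1 between controls. For UNC45A it ran from -0.070 to 0.058 in FaDu HT, from -0.11 to 0.085 in FaDu HT + RT, from -0.0095 to 0.031 in SAS HT, from -0.10 to 0.074 in the difference with HT and from -0.085 to 0.14 with HT + RT. Why these signs changed was not tested.

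The limma fit was not run for HT + RT against HT or for the differences between lines, since no deposited table covers them. With 3 libraries a group, an adjusted p that missed the threshold does not show that a member did not change.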
